A study of Mus musculus with 8 samples.

Results

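The 10 genes described here belong to the cardiomyocyte's contractile scaffold and were measured in ventricles of mouse embryos in which Mib1, a ubiquitin ligase that activates Notch ligands, was deleted in heart muscle: Myom1 and Myom2 of the M-band, Actn2, Nebl, Tcap and Csrp3 of the Z-disc, Ankrd1 of the I-band and nucleus, Xirp1 and Xirp2 of the intercalated disc, and Des of the filaments that tie these structures together. They were chosen by name and from earlier results of the same comparison, so their levels and differences are a description, without p-values, and where a count of calls includes them it supports nothing. All 10 had a row among the 13869 genes of the deposited table, and all 10 passed the filter on low values (a mean log2 CPM of at least 0), as 13740 genes did.

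RNA was taken from heart ventricles of E14.5 embryos (embryonic day, counted from conception). Mutant embryos carried a floxed Mib1 allele and a cardiac troponin T Cre (genotype Mib1flox; TnT-Cre), which deletes Mib1 in cardiomyocytes and leaves it in the other cells of the wall, and the wild-type embryos were their siblings. Hearts of 16 embryos per genotype were pooled into 4 libraries each, so a replicate is a pool, and the spread between replicates is the spread between pools, which is also what the p-values measure. The labels do not say how many Mib1 alleles were floxed, whether the wild-type embryos carried Cre, or whether the pools came from separate litters.

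Sarcomeres are anchored at both ends by Z-discs and in the middle by the M-band. At the Z-disc, alpha-actinin (Actn2) crosslinks actin filaments, nebulette (Nebl) lines the thin filament beside it, and telethonin (Tcap) caps the end of titin; at the M-band, the myomesins (Myom1, Myom2) crosslink thick filaments. Muscle LIM protein (Csrp3) and the ankyrin repeat protein CARP (Ankrd1) bind near titin and also act in the nucleus, and their transcripts are known as responders to load in the adult heart. The Xin proteins (Xirp1, Xirp2) bind actin at the intercalated disc, where cardiomyocytes join end to end, and desmin (Des) links Z-discs to each other and to that disc.

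Counts recovered from the deposited values came to 6597943 to 11506082 per mutant library and 6307634 to 8964058 per wild-type library, and 3 counts, the smallest level taken as detectable, equalled 0.265 to 0.472 CPM, where CPM are counts scaled to 1000000 per library; this floor covers counting error only. Mib1, the deleted gene, stood at 106, 103, 95.3 and 96.3 CPM in the mutant libraries and at 150, 166, 161 and 167 CPM in the wild-type libraries, with no overlap (exact two-sided permutation p = 0.0286, the smallest that 4 against 4 libraries allow). Markers of the labelled tissue were abundant: 14 core cardiomyocyte genes summed to 47111 to 50327 CPM in mutant libraries and 48827 to 53341 CPM in wild-type libraries, with a median difference of −0.05 (log2, mutant minus wild type) and 0 of 14 called by limma (adjusted p under 0.05; 4 had an unadjusted p under 0.05). In bulk RNA, fewer cells of a type and less RNA per cell cannot be told apart.

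The 10 genes did not move as 1 group. In mutant ventricles Ankrd1 and Myom2 were higher on average and Xirp2 and Des lower, while Myom1, Actn2, Nebl, Tcap, Csrp3 and Xirp1 differed by at most 0.13 on the log2 scale. Of the differences 6 lay below 0 and 4 above, and their median was −0.03, against 0.0009 over all genes tested. With a limit of 0.05 on its adjusted p, limma called 2.24% of the whole table, 0.99% as higher and 1.25% as lower in mutants, and of the 10 genes 0 were called higher and 1, Xirp2, lower. Some other settings, given in the closing section, also called Ankrd1, Myom2 or Des, and some lost Xirp2. The libraries of the 2 groups did not overlap for 3 of the 10, Ankrd1 (higher), Xirp2 and Des (both lower), where 8.92% of all genes tested had no overlap, 4.27% higher and 4.65% lower. Since the genes were picked with this contrast in view, nothing is read from these counts.

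**Figure D1:**
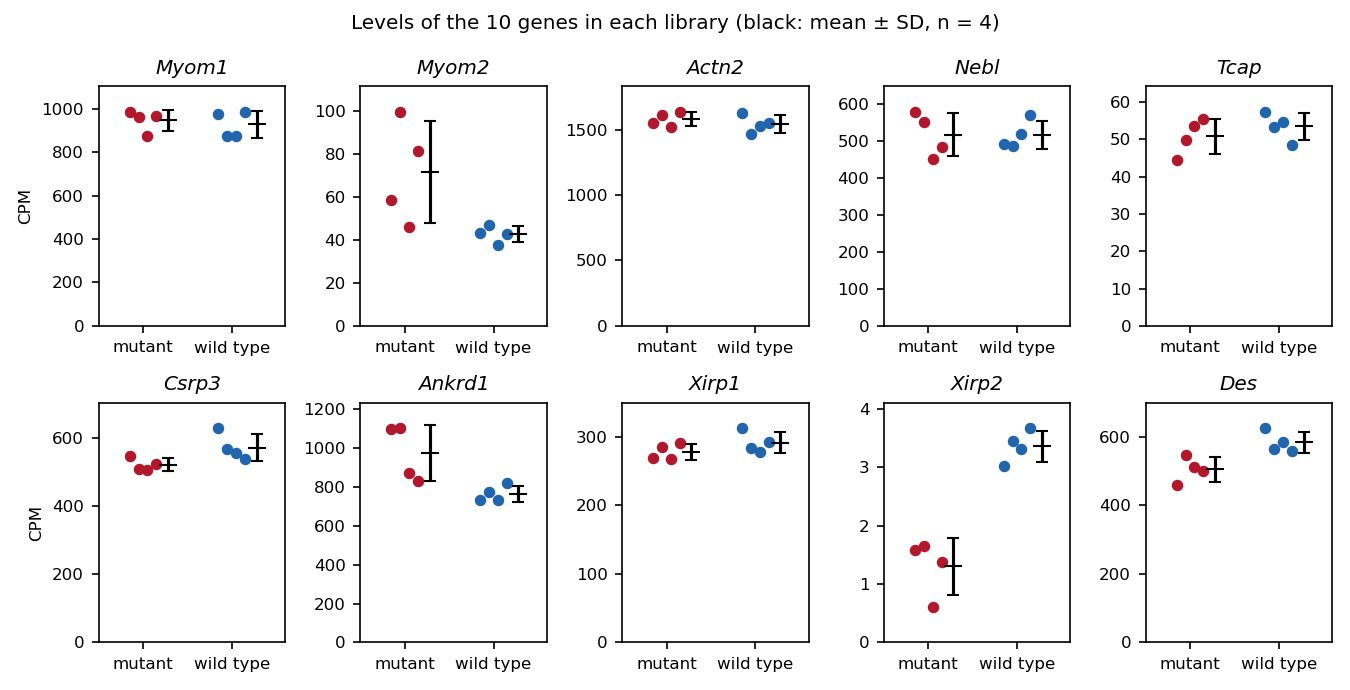
Level of each gene in CPM (vertical axis, from 0) in the 4 mutant libraries (red) and the 4 wild-type libraries (blue), with the mean and SD in black. The groups are apart for Ankrd1, Xirp2 and Des and overlap for the other genes; mutant Myom2 spreads from 46.1 to 99.5 CPM.

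At the M-band, the pair of myomesin genes differed from each other. Myom1, which encodes the principal myomesin, had 984, 960, 876 and 965 CPM in mutant libraries, against 977, 872, 873 and 986 CPM in wild-type libraries. The means were 946 ± 48.1 CPM in mutants and 927 ± 62.8 CPM in wild type (SD, n = 4 each), the groups overlapped throughout, and the log2 difference was 0.03 ± 0.06 (SE). Myom2, which encodes M-protein, a myomesin of fast and adult fibres, had 58.6, 99.5, 46.1 and 81.5 CPM in mutant libraries, against 43.2, 47.1, 37.8 and 42.55 CPM in wild-type libraries. Of the mutant libraries 3 were above every wild-type library and mutant replicate 3 lay among them. The mean was 71.4 ± 23.8 CPM in mutants and 42.7 ± 3.80 CPM in wild type (SD), a log2 difference of 0.68 ± 0.18 (SE) or 1.61-fold. Without mutant replicate 3 the difference was 0.87 ± 0.14, and without mutant replicate 2, the highest library, 0.50 ± 0.15.

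The spread of Myom2 was itself unequal. On the log2 scale its SD was 0.49 among mutant libraries and 0.13 among wild-type libraries, where counting alone gives about 0.07 at 240 to 782 counts per library. Its within-group SD stood at percentile 89.1 of all genes tested. Relative to Myom1 and per base of coding transcript, Myom2 came to 6.63%, 11.5%, 5.86% and 9.39% in mutant libraries, against 4.92%, 6.01%, 4.82% and 4.80% in wild-type libraries. Myom1 was thus the main M-band myomesin transcript in every library, and the mutant share of Myom2 was above the wild-type range in 3 of 4 libraries. The exons of Myom1 overlap those of Myl12a on the other strand, and no source used here says whether the libraries keep strand; Myl12a, a non-muscle light chain gene, stood at 312 ± 9.13 CPM in mutants and 305 ± 1.86 CPM in wild type (SD, n = 4).

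Structural genes of the Z-disc stood at close to equal levels. Actn2, the most abundant of the 10 by CPM, had 1547, 1613, 1522 and 1637 CPM in mutant libraries, against 1629, 1467, 1527 and 1554 CPM in wild-type libraries, a log2 difference of 0.03 ± 0.05 (SE). Its within-group SD of 0.06 (log2) was at percentile 6.35 of all genes tested, the lowest of the 10. Nebl had 579, 552, 452 and 485 CPM in mutant libraries, against 490, 485, 517 and 570 CPM in wild-type libraries, a difference of 0.00 ± 0.08. Tcap had 44.5, 49.9, 53.4 and 55.3 CPM in mutant libraries, against 57.4, 53.3, 54.5 and 48.5 CPM in wild-type libraries, a difference of −0.08 ± 0.08. For these 3 genes every difference was smaller than 2 SE and the groups overlapped. Nebl has 7 annotated coding transcripts and 4 RefSeq start sites, some of which make a non-muscle LIM form, and the table does not separate them.

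Of the pair whose proteins also act in the nucleus, Csrp3 was slightly lower and Ankrd1 higher in mutants. Csrp3, whose protein anchors calcineurin signalling and telethonin at the Z-disc, had 546, 508, 505 and 523 CPM in mutant libraries, against 628, 566, 554 and 536 CPM in wild-type libraries. Only mutant replicate 1 reached into the wild-type range. The means were 520 ± 18.8 CPM in mutants and 571 ± 39.7 CPM in wild type (SD, n = 4), a log2 difference of −0.13 ± 0.05 (SE). Ankrd1 had 1099, 1103, 872 and 830 CPM in mutant libraries, against 733, 777, 732 and 820 CPM in wild-type libraries. Every mutant library was above every wild-type library, with mutant replicate 4 and wild-type replicate 4 closest to each other. The means were 976 ± 145 CPM in mutants and 765 ± 41.8 CPM in wild type (SD), a log2 difference of 0.34 ± 0.09 (SE) or 1.27-fold. Mutant replicates 1 and 2 formed the upper pair and 3 and 4 the lower pair, and the difference ranged from 0.28 to 0.41 when any 1 library was left out. Per base of coding transcript, Ankrd1 came to 89.6%, 96.6%, 76.9% and 70.7% of Csrp3 in mutant libraries, against 52.0%, 61.1%, 58.8% and 68.0% in wild-type libraries, with no overlap.

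The window around the Ankrd1 start site is shown because Ankrd1 was the member whose mutant libraries were all higher. It runs from 250 bases before to 50 bases after the RefSeq start, at chr19:36119795-36120094 on the minus strand (GRCm38.p6), written 5′ to 3′ along the gene. Capitals mark 2 copies of the M-CAT core, the site of TEAD factors (CATTCC, here on the opposite strand as GGAATG), at −210 to −205 and −123 to −118 from the start, and 2 copies of the RBPJ core, the site of the Notch effector (TGGGAA, here as TTCCCA), at −141 to −136 and −63 to −58; no 2 of them overlap.
Ankrd1: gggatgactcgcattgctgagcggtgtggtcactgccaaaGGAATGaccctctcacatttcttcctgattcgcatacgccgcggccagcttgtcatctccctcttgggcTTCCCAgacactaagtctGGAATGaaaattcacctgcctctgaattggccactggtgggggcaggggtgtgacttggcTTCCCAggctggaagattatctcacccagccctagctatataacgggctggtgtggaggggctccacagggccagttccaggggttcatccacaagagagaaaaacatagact
Both strands were searched for these cores, for the CArG box of serum response factor and for the MEF2 site. Of 32851 RefSeq promoter windows of this length, 14.7% held at least 1 M-CAT core, 25.6% at least 1 RBPJ core, 1.63% a CArG box and 3.19% a MEF2 site. These are shares of windows and not of genes, and windows with 2 copies were not counted apart. A match is a run of letters and not a site shown to be bound. Sequences were at hand for 7 of the 10 genes, in 11 windows: besides Ankrd1, a CArG box was found for Myom1 (at −99 to −90) and for 1 of the 4 Nebl starts (at −162 to −153), the other Nebl starts held 1 RBPJ core and 1 M-CAT core, Xirp2 held a MEF2 site, and Csrp3, Actn2 and Des held none of the 4.

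The Xin genes also differed from each other. Xirp1 had 269.5, 285.5, 267 and 292 CPM in mutant libraries, against 313, 283, 278 and 292 CPM in wild-type libraries. The groups overlapped, with means of 278 ± 12.0 CPM in mutants and 292 ± 15.3 CPM in wild type (SD, n = 4) and a log2 difference of −0.07 ± 0.05 (SE). Xirp2 was far less abundant, at 1.59, 1.65, 0.599 and 1.37 CPM in mutant libraries, against 3.03, 3.44, 3.31 and 3.67 CPM in wild-type libraries. Every mutant library was below every wild-type library. These levels rest on 18, 13, 4 and 11 counts in the mutant libraries and 21, 31, 21 and 30 counts in the wild-type libraries, 46 and 103 in all. The means were 1.30 ± 0.485 CPM in mutants and 3.36 ± 0.268 CPM in wild type (SD), and the fitted log2 difference was −1.42 ± 0.30 (SE), or 2.67-fold lower in mutants.

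Mutant replicate 3, with 4 counts, was the lowest library for Xirp2. Without it the difference was −1.11 ± 0.23, and without any other single library it lay between −1.56 and −1.37. The within-group SD of Xirp2, 0.45 (log2), was at percentile 93.5 of all genes tested, beside 0.38 that counting alone gives on average. It was unequal, at 0.63 among mutant libraries and 0.11 among wild-type libraries, and the SE pools both groups. Xirp2 was no longer among the genes limma called without wild-type replicate 1 (−1.46 ± 0.34), 2 (−1.40 ± 0.34), 3 (−1.42 ± 0.34) or 4 (−1.37 ± 0.34), without the variance trend, with the cardiomyocyte or the erythroid level as a covariate, or at an adjusted p under 0.01. With a pseudocount of 1 CPM the difference was −0.95 and with 5 CPM −0.41, as adding a constant shrinks the difference of a gene at this level. As a share of Xirp1 per base of coding transcript, Xirp2 came to 0.287%, 0.282%, 0.109% and 0.229% in mutant libraries, against 0.4715%, 0.592%, 0.579% and 0.612% in wild-type libraries. An antisense gene, Gm13601, overlaps Xirp2 exons and was not analysed here, and reads that fit both Xin genes, or both myomesin genes, could be split between them by the counting.

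The window around the Xirp2 start is shown as that of the member with the widest difference. It lies at chr2:67445752-67446051 on the plus strand (GRCm38.p6), 5′ to 3′, with capitals for the 1 match among the 4 motifs, a MEF2 site at −74 to −65.
Xirp2: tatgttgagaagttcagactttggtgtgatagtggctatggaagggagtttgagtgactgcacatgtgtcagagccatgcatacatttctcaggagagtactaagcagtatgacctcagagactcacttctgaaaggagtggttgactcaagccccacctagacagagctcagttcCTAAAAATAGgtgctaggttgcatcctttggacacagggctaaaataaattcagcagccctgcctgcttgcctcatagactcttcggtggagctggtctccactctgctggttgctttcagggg

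Desmin transcripts were lower in mutants by a small amount. Des had 459, 549, 512 and 500.0 CPM in mutant libraries, against 626, 566, 585 and 559 CPM in wild-type libraries. The groups did not overlap, with mutant replicate 2 and wild-type replicate 4 closest to each other. The means were 505 ± 36.9 CPM in mutants and 584 ± 29.9 CPM in wild type (SD, n = 4), a log2 difference of −0.21 ± 0.06 (SE), which lay between −0.25 and −0.17 with any 1 library left out. Smooth muscle and pericytes also make desmin: the list of their 12 markers, Des among them, summed to 2368 to 2495 CPM in mutant libraries and 2153 to 2393 CPM in wild-type libraries, with a median difference of 0.001, and 2 of the 12 rose and 1 fell. Acta2, the most abundant of them, rose to 1088 ± 50.7 CPM in mutants, against 846 ± 71.2 CPM in wild type (SD, n = 4; limma adjusted p = 0.00614). Bulk RNA does not show which cells the transcripts on this list came from. The part of smooth muscle and pericytes in the Des difference was not tested. An antisense gene that overlaps Des exons, Gm15179, was not analysed here. The Des start, at chr1:75360042-75360341 on the plus strand (GRCm38.p6), is shown for comparison with the other members whose groups were apart, and has no capitals because it held none of the 4 motifs.
Des: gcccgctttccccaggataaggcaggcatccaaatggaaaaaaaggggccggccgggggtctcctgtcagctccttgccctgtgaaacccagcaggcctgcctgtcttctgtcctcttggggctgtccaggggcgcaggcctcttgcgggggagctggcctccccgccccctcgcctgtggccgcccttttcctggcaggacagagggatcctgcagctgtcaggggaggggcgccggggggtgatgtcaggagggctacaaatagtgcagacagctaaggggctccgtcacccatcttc

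**Figure D2:**
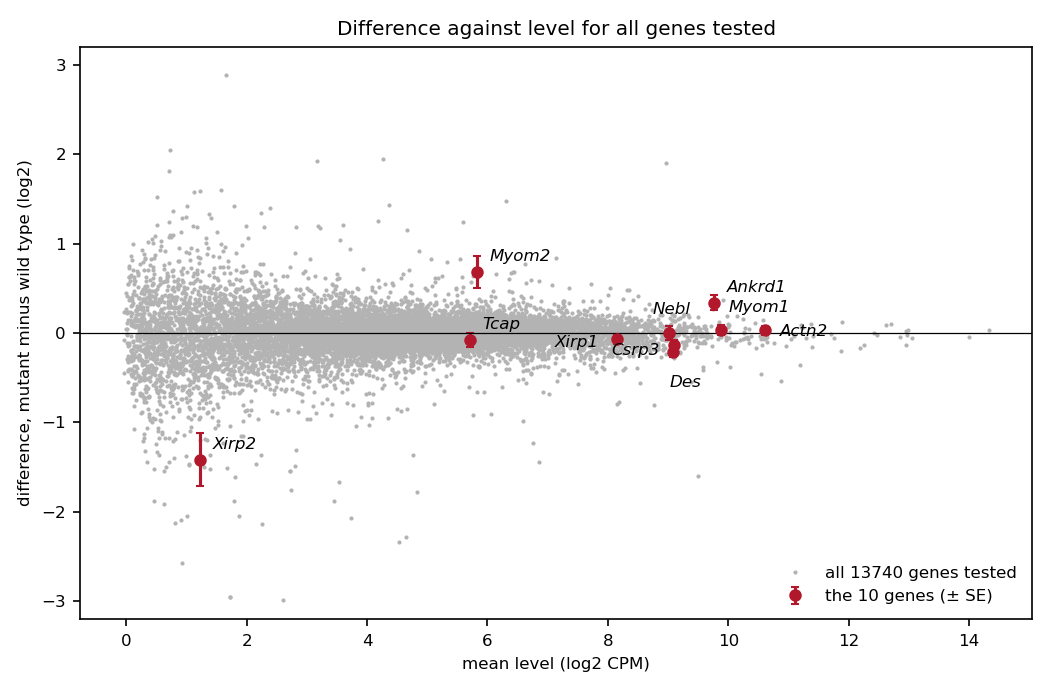
Difference between the groups (vertical axis, log2, mutant minus wild type) against mean level (horizontal axis, log2 CPM) for all 13740 genes tested (grey; 3 genes lie beyond the vertical axis) and the 10 genes (red, with SE). Xirp2 sits among genes of few counts, where differences scatter widely, and the other 9 at higher levels, with Myom2 and Ankrd1 above 0.

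Per base of coding transcript the wild-type order of the 10 genes was led by Csrp3 at 635 ± 44.2 CPM per kilobase (SD, n = 4), followed by Actn2 at 512.5 ± 22.4, Ankrd1 at 379 ± 20.7, Des at 193 ± 9.88 and Myom1 at 164 ± 11.1. Below these stood Nebl at 63.9 ± 4.82, Tcap at 56.4 ± 3.88 and Xirp1 at 49.96 ± 2.62, neighbours that lay within the sum of their SDs of each other, and then Myom2 at 8.41 ± 0.750 and Xirp2 at 0.281 ± 0.0224. In mutants Ankrd1 averaged 483 ± 71.9 CPM per kilobase and Actn2 524 ± 17.96, so the Ankrd1 range reached that of Actn2, and Csrp3 was at 579 ± 20.9. These levels take the longest annotated coding transcript as the length, 899 bases for Csrp3 and 11979 for Xirp2, and understate Nebl if shorter forms dominate. By CPM, 7 of the 10 were above percentile 95 of all genes tested, Tcap and Myom2 were at 68.7 and 69.8, and Xirp2 was at percentile 8.0. The genes lie on 9 chromosomes, only Nebl and Xirp2 sharing 1 (chromosome 2), and their GC content ran from 40.1% (Nebl) to 61.3% (Tcap), beside a median of 50.1% over genes tested.

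The libraries of 1 genotype differed in a way that followed transcript length. Mutant replicate 3 was the lowest mutant library for 7 of the 10 genes and the highest for 0, including all 5 with a coding transcript over 5000 bases (Xirp2, Nebl, Xirp1, Myom1 and Myom2). It was also lowest for Actn2 (3013 bases) and for Csrp3, the shortest of the 10 at 899 bases. Over all genes tested it was the lowest mutant library for 27.9%, but for 48.7% of 2910 genes over 5000 bases and for 12.9% of 2917 genes under 2000 bases. Mutant replicate 1 went the other way, lowest for 21.4% of the long and 41.3% of the short genes, and was lowest for Tcap (948 bases) and for Des (3028 bases). Among wild-type libraries, replicate 4 was lowest for 38.6% of the short genes, against 28.4% of all, and for Csrp3, Tcap and Des among the 10. The part of this length pattern in the differences was not tested. Without mutant replicate 3 the median of the 10 differences was 0.002, against −0.03 with all libraries.

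**Figure D3:**
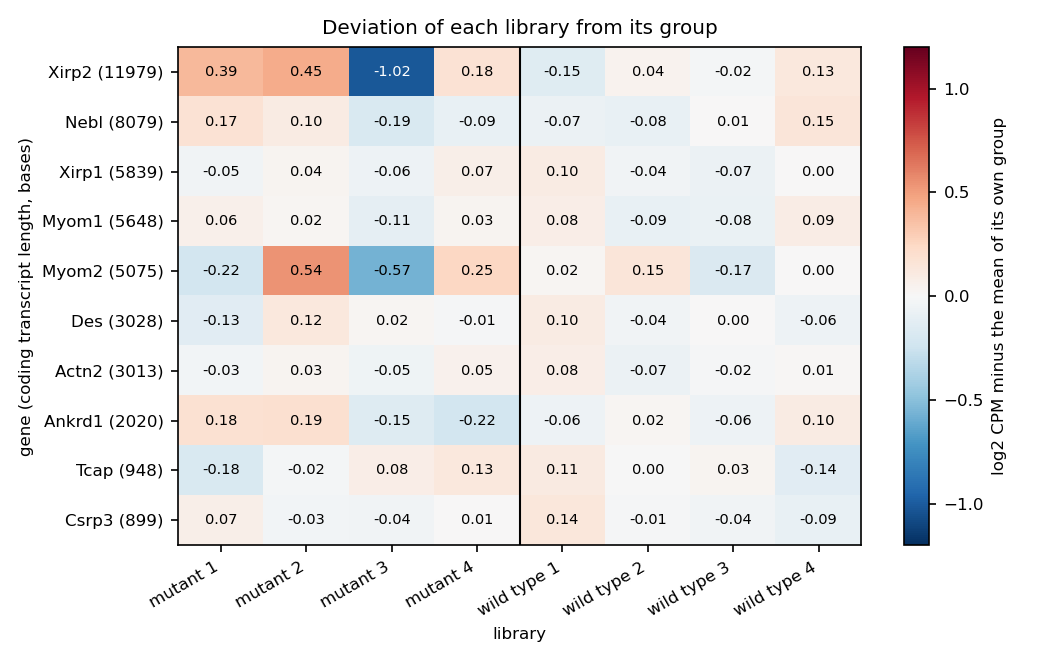
Deviation of each library (columns) from the mean of its own genotype (log2 CPM) for the 10 genes (rows), ordered from the longest coding transcript, Xirp2 with 11979 bases, to the shortest, Csrp3 with 899. Mutant replicate 3 is below its group for every gene over 5000 bases, at −1.02 for Xirp2 and −0.57 for Myom2.

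Genes of the same structures, from 4 lists that hold none of the 10, were read from the same limma fit. Of 89 listed genes 83 were tested, of which 3 rose, 1 fell and 79 did not pass the test, so 4.82% were called against 2.24% over the table. These lists too were chosen with earlier results of these data known, so nothing is read from this share. Their median difference was 0.005.

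Among 13 tested partners at the M-band and along titin, 1 rose and none fell, with a median of 0.005. Fhl2, a LIM protein that binds titin and tethers metabolic enzymes there, had 299, 311, 306 and 314 CPM in mutant libraries, against 225, 212, 218 and 215 CPM in wild-type libraries. It rose to 308 ± 6.60 CPM in mutants, against 218 ± 5.55 CPM in wild type (SD, n = 4), a log2 difference of 0.50 ± 0.04 (SE; limma adjusted p = 2.04e-05), and the call held with each library left out. Trim54, a muscle ring finger protein of M-band and Z-disc, was at 1.96 ± 0.631 CPM in mutants and 3.81 ± 0.323 CPM in wild type, a difference of −0.99 ± 0.24 (adjusted p = 0.0524). Its groups did not overlap, and like Xirp2 it was a low-count gene with mutant replicate 3 lowest. Smyd1, a methyltransferase that myosin assembly requires, stood at −0.20 ± 0.05 (adjusted p = 0.0550) and Trim63, the ubiquitin ligase MuRF1, at 0.24 ± 0.07 (adjusted p = 0.0857).

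None of 28 tested Z-disc partners was called by limma (median 0.002; 2 of them had an unadjusted p under 0.05). The 4 of smallest p were Pdlim1 at 0.19 ± 0.05 (adjusted p = 0.0755), Pdlim3 at 0.27 ± 0.08 (adjusted p = 0.113), Flnc, which encodes the filamin that the Xin proteins bind, at −0.13 ± 0.06 (adjusted p = 0.338), and Synpo2, which encodes an actin-bundling partner of alpha-actinin, at −0.12 ± 0.06 (adjusted p = 0.348). The range over the list was −0.17 to 0.27, and the Z-disc members Actn2, Nebl, Tcap and Csrp3 lay within it. Some differences in the list were imprecise, such as Cavin4 at 0.005 ± 0.26 and Neb at −0.14 ± 0.19 (SE).

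Among 24 tested partners at the intercalated disc, 2 rose and none fell, with a median of 0.04. Cxadr, a junction protein that is also the coxsackievirus receptor, had 181, 186, 167 and 162 CPM in mutant libraries, against 134, 127, 136 and 146 CPM in wild-type libraries, a difference of 0.36 ± 0.06 (SE; limma adjusted p = 0.00527). The call was kept with each library left out, and lost without the variance trend and with the cardiomyocyte or the erythroid level as a covariate. Cdh2, which encodes N-cadherin, the adhesion receptor of the disc, rose to 692 ± 25.2 CPM in mutants, against 600.2 ± 6.19 CPM in wild type (SD, n = 4), a difference of 0.20 ± 0.04 (adjusted p = 0.0268). Leaving out 1 library at a time ended that call in 6 of 8 cases, without mutant replicate 2 (adjusted p = 0.0736) or 4 (0.0753) and without wild-type replicate 1 (0.0967), 2 (0.103), 3 (0.0872) or 4 (0.0641). It was also lost with the replicate number as a block, without the variance trend, with either covariate and at an adjusted p under 0.01. The catenin genes Ctnna1 and Ctnnd1, whose proteins bind N-cadherin, were at 0.19 ± 0.05 (adjusted p = 0.0810) and 0.15 ± 0.05 (adjusted p = 0.135), with no overlap between the groups.

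In the list of load and stress response genes 0 of 18 rose and 1 fell, with a median of −0.03. Nppa, the atrial natriuretic peptide gene, which marks trabeculae at this stage and is re-expressed under load later, fell to 362 ± 35.9 CPM in mutants, against 1089.5 ± 36.1 CPM in wild type (SD, n = 4), a difference of −1.60 ± 0.07 (limma adjusted p = 6.86e-09). Its sister gene Nppb stood at −0.41 ± 0.13 (adjusted p = 0.132) and the small heat shock gene Hspb1 at −0.22 ± 0.07 (adjusted p = 0.156). Ankrd23, which belongs to the same ankyrin repeat family as Ankrd1, was at 15.8 ± 0.651 CPM in mutants and 13.2 ± 1.45 CPM in wild type, a difference of 0.26 ± 0.10 (adjusted p = 0.239) with no overlap. Nppa and Ankrd1 stood on opposite sides of 0 in the same libraries, and load on the wall was not tested.

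**Figure D4:**
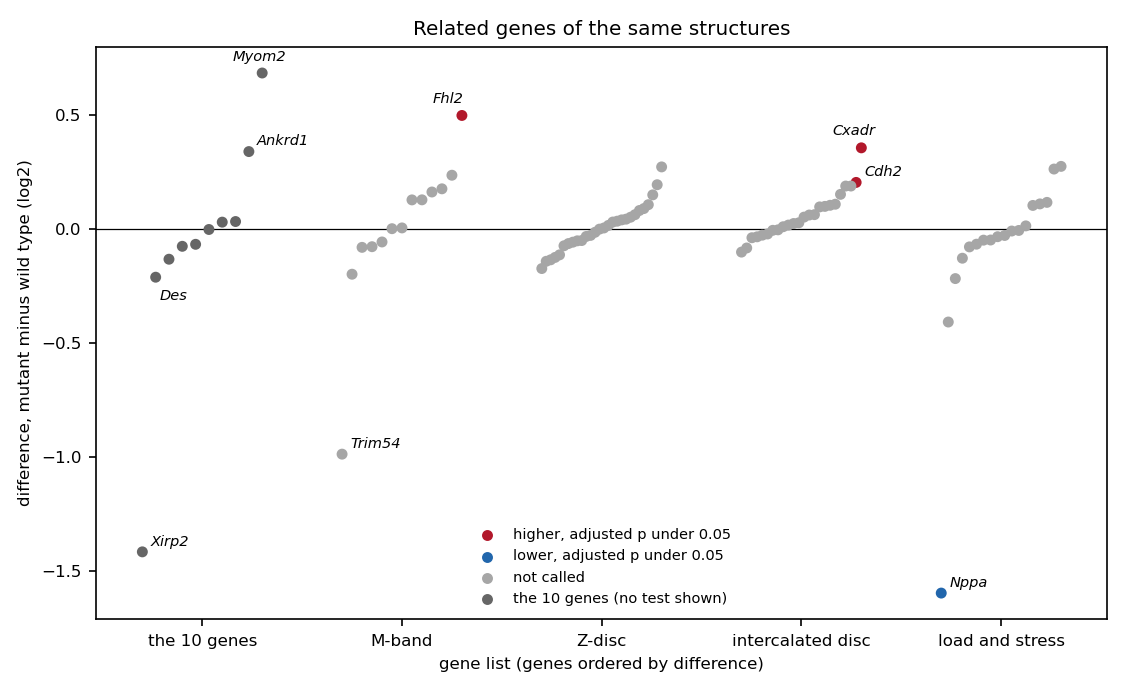
Difference between the groups (vertical axis, log2, mutant minus wild type) for the 10 genes (dark grey, no test shown) and for the 4 lists of related genes, each ordered by its difference; red and blue mark limma calls higher and lower in mutants. Fhl2, Cxadr and Cdh2 are called higher and Nppa lower, and the Z-disc list stays between −0.17 and 0.27.

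Markers of other cells were read beside these values. The 14 endothelial and endocardial markers summed to 1294 to 1338 CPM in mutant libraries and 1538 to 1577 CPM in wild-type libraries (0 rose, 6 fell, median −0.25; Cdh5, the most abundant, at −0.14), and the 12 macrophage markers to 80.7 to 102 CPM in mutants and 118 to 144 CPM in wild type (3 fell, median −0.52; Lyz2 at −0.88). The 9 tested erythroid markers summed to 1966 to 3228 CPM in mutants and 3002 to 4090 CPM in wild type (2 fell, median −0.49; Hbb-bs at −0.38). The 12 fibroblast and epicardial markers held no limma call (1 with an unadjusted p under 0.05, median −0.04; Col3a1 at −0.07), and of 10 atrial markers 1 rose and 2 fell (median −0.38; Myl4 at −0.11). Skeletal muscle expresses most of the 10 genes too; 6 of its 14 markers were tested and summed to 13.2 to 22.6 CPM in mutants and 22.2 to 25.5 CPM in wild type (0 called by limma, 2 with an unadjusted p under 0.05, median −0.48), Tnni2 being the highest at 9.87 ± 2.71 CPM in mutants and 13.9 ± 1.77 CPM in wild type (SD, n = 4), while Myod1, Myog and 6 others were not analysed here. Of the core cardiomyocyte genes, Myh7, the most abundant, was at −0.04 ± 0.08. The part of cell composition in the differences of the 10 genes was not tested. With the core cardiomyocyte level as a covariate Ankrd1 was at 0.26, Myom2 at 0.89, Des at −0.16 and Xirp2 at −1.42. With the erythroid level, itself lower in mutants, as a covariate they were at 0.17, 0.69, −0.20 and −1.52 (log2, mutant minus wild type). Endothelial and macrophage levels were not fitted.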

How the data were processed

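Polyadenylated RNA of pooled ventricles was read from 1 end in 8 libraries, 4 Mib1 mutant and 4 wild type. The submitters' processing notes name cutadapt 1.2.1, RSEM 1.16, Bowtie2 0.12.7 (as written there), limma, edgeR and the build mm9; no role or order is given. The authors' deposited values are a score; as read from the values themselves, each equals log2 CPM with a prior of 0.5 counts, times a constant per library that makes the column sum to 1000000. Dividing by that constant gave log2 CPM, and 100% of the counts behind it came back whole within 0.001. Symbols (13428 genes) came from a table of gene IDs and names, transcript lengths from GENCODE M21 and promoters from RefSeq (GRCm38.p6); coordinates are given for promoter windows only, on that build and not on mm9.

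A linear model with genotype as its only term was fitted to the 13740 genes whose mean log2 CPM reached 0 (limma 3.58.1, R 4.3.3; eBayes with a trend). Its two-sided p-values were Benjamini-Hochberg adjusted over all 13740 genes and called under 0.05. Differences are log2 mutant minus wild type with the moderated SE; levels are mean CPM with the SD over 4 libraries. The pipeline was tested on simulated data. The 10 genes, the lists and the tests were chosen with earlier results of these data known. Related genes named are all those called and the 4 of smallest p per list, of each marker list the most abundant. Alternatives were 26 settings, given in the closing section.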

Additional observations from a re-analysis of the deposited data

Results flagged for a closer look

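Of 70 groups of 4 libraries checked (35 genes named here in each genotype) with the gap ratio of Dixon at the 95% level, 1 stood out, where about 1 in 20 is flagged by chance. Hspb1 in wild-type replicate 4 was at 205 CPM, against 225 to 227 CPM in the other wild-type libraries.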

How the results depend on the processing

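With all libraries 136 genes were called higher and 172 lower in mutants, 3 higher and 1 lower among the related genes. Without the variance trend these were 70 and 109 (1 related gene higher), with array weights 226 and 264 (6 and 3 related), with the cardiomyocyte level as a covariate 56 and 62, with the erythroid level 16 and 19 (1 related gene higher), at an adjusted p under 0.01 54 and 65, and under 0.1 252 and 299 (6 and 3 related). Related genes called lower numbered 2 with a pseudocount of 1 or 5 CPM, quantile or total-count scaling or voom, and 3 with upper-quartile scaling or robust eBayes. Leaving out 1 library at a time gave 64 to 208 higher and 81 to 269 lower, 2 to 5 and 1 to 3 among related genes, and a median of the 10 differences from −0.0528 to 0.00187. Same-numbered libraries correlated at −0.04 to 0.10 after removal of group means. With 4 pools per group these values cannot show whether such libraries shared a litter or a batch. With a replicate block 104 genes were higher and 136 lower, 2 and 1 among related genes, Cdh2 losing its call. Of 239 alternative values for the 10 genes, 234 lay within 1 replicate SD of the reported one. Much of that count was fixed in advance, so nothing is read from it. Settings that changed only the filter, the variance model or the replicate block left each difference as it was. Leaving out 1 of 4 libraries cannot move a difference that far. Beyond 1 replicate SD were Xirp2 with larger pseudocounts (−0.95 and −0.41) and Xirp1 with the cardiomyocyte covariate (0.00). So were Ankrd1 (0.17) and Csrp3 (−0.21) with the erythroid covariate. The cause of these shifts was not tested. Among the 10 genes, Ankrd1 was also called with quantile or total-count scaling, with array weights, and without mutant replicate 3 or 4. Myom2 was also called with array weights, with a replicate block, and without mutant replicate 3. At an adjusted p under 0.1 Ankrd1, Myom2 and Des were called beside Xirp2. With a minimum mean of 5 CPM Xirp2 was not tested. Few counts limit Xirp2.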
